A study of Homo sapiens with 4 samples.

Results

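The imprinted cluster on chromosome 15q11 was examined in MDA-MB231 and Hs578T, established human breast cancer cell lines classed as basal-like in the labels. Its members were taken by name: every SNORD116 and SNORD115 copy, together with SNRPN, SNURF, SNORD64, SNORD107, SNORD108, SNORD109A, IPW, UBE3A, NDN, MAGEL2 and MKRN3. Of 89 such genes, 44 had a probe set of their own, among 18417 genes measured in all. A further 35 were covered only by probe sets that list several genes, and 10, among them SNORD107, SNORD108, IPW and SNORD116-30, were not analysed here. The 44 were 20 SNORD116 copies, 20 SNORD115 copies, UBE3A, NDN, MAGEL2 and MKRN3.

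Each line gave 1 control array and 1 array of cells made to express FBP1, the gene of an enzyme of glucose synthesis. The FBP1 cells were selected as stable clones. The labels do not say how many clones an array held or what construct the controls carried, so an effect of FBP1 and a difference between clones cannot be told apart. Values are log2 expression values of probe sets. The genes were chosen by name, but the set was selected on the difference between the lines and between FBP1 and control on these same arrays, so both are given as a description. With 1 array per line and construct, no difference within a line has a replicate check.

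This stretch of the genome is read differently on the chromosomes inherited from each parent. On the paternal copy a long transcript starts at the SNURF and SNRPN promoter and runs through the SNORD116 and SNORD115 arrays towards UBE3A, and the small nucleolar RNAs (snoRNAs) are cut from its introns. SNORD116 and SNORD115 are C/D box snoRNAs, a class that guides RNA methylation, but these families are called orphans because no ribosomal target is established for most of them. Loss of the paternal copy causes Prader-Willi syndrome and loss of the maternal UBE3A copy causes Angelman syndrome. SNORD115 and the silencing of paternal UBE3A are known mainly from neurons, whereas SNORD116 and SNRPN are transcribed more widely.

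Promoter windows of SNURF and SNRPN, NDN, MAGEL2 and UBE3A are shown. They were chosen because the probe set for SNURF and SNRPN differed widely between the lines and those of NDN, MAGEL2 and UBE3A differed less. The windows reach from 250 bases before to 50 bases after a gene's start, are from RefSeq on GRCh38.p14, and are written 5′ to 3′ with every CG dinucleotide, the site of DNA methylation, in capitals. The SNURF window (chr15:24954737-24955036, plus strand), which is also one of the start windows of SNRPN, lies at the centre known to carry the imprint. The NDN (chr15:23687256-23687555), MAGEL2 (chr15:23647818-23648117) and UBE3A (chr15:25438975-25439274) windows are on the minus strand.
SNURF and SNRPN: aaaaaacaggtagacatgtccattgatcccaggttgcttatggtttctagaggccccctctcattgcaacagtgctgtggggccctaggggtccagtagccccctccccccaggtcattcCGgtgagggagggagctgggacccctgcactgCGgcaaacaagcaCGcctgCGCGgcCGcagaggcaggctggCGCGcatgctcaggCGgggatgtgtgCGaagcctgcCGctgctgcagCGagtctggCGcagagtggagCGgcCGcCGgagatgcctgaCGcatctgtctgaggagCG
NDN: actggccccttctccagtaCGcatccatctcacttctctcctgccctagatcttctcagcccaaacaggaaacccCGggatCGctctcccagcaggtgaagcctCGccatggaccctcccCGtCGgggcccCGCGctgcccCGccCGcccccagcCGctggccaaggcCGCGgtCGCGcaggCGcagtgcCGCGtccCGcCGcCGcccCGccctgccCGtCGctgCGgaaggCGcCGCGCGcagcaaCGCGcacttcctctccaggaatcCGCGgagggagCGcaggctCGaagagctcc
MAGEL2: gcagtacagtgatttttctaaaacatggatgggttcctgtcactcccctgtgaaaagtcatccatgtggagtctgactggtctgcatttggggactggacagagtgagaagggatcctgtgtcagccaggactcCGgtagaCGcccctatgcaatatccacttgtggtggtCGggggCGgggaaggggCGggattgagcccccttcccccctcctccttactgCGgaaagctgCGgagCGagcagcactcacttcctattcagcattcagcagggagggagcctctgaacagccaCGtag
UBE3A: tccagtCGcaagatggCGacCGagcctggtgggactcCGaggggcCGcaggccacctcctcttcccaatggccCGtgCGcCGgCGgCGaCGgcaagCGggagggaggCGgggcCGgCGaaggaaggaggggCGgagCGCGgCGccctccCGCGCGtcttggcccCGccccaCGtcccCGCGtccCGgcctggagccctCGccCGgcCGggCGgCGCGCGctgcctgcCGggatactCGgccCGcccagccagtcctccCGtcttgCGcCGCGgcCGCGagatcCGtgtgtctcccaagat

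These windows differed in CG content. The SNURF window held 18 CG dinucleotides, and 44.3% of 34943 RefSeq windows of this length held as many or more. NDN held 35 (14.1% of windows) and the UBE3A window shown 44 (4.19%), with 39 and 38 in its 2 other start windows, whereas MAGEL2 held 9 (58.3%). The window of MKRN3, the member nearest to NIPA1 at the centromeric end, held 15, and that of IPW, which starts inside the transcription unit, held 0. The letters TGCGCA, part of the site of the factor NRF1 and the same on both strands, occurred once in each of 2 other SNRPN start windows and in none of the windows printed here; 8.19% of all windows hold them. Other forms of the NRF1 site were not searched for. DNA methylation was not measured, so these counts describe sequence only.

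FBP1 itself checks the construct labels. Its log2 value went from 9.83 to 13.07 in MDA-MB231 and from 6.35 to 13.35 in Hs578T. Array medians ran from 7.83 to 7.86. Of the mesenchymal and basal markers, VIM, CD44 and CAV1 lay between 13.66 and 13.92 on all arrays and EGFR between 10.63 and 11.05, whereas KRT5 lay between 6.80 and 6.93. KRT14, the remaining one measured, had 8.64 and 8.45 in MDA-MB231 and 8.85 in the Hs578T control and 9.62 with FBP1, a difference of 0.77 within Hs578T. Of 4 leukocyte and 4 endothelial markers measured, 0 were at least 2-fold higher in Hs578T. The endothelial marker PECAM1 was past 2-fold the other way (-1.61), with 8.51 and 8.48 in MDA-MB231 against 6.81 and 6.97 in Hs578T.

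The first comparison was between the lines, taken within the control arrays and within the FBP1 arrays and averaged. SNORD116 was higher in Hs578T at each of the 20 copies with a probe set of its own, by a median of 2.69 on the log2 scale (6.44-fold) against 0.03 over all genes. Of the 20, 17 were at least 2-fold higher, and 0 of the 44 members were at least 2-fold higher in MDA-MB231; over all genes 4.88% were at least 2-fold higher in Hs578T and 4.85% in MDA-MB231. In all 20 copies both Hs578T arrays lay above both MDA-MB231 arrays, as did 36.5% of all genes. Nothing is read from these counts, because the set was chosen with this difference known. In bulk samples, less RNA per cell and fewer cells with the RNA cannot be told apart.

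The largest differences were at SNORD116-14, SNORD116-21, SNORD116-20 and SNORD116-24, and the smallest, at SNORD116-16, lay among the same copies. SNORD116-14 had log2 values of 4.84 in the MDA-MB231 control, 4.06 with FBP1, 12.15 in the Hs578T control and 11.61 with FBP1, a difference of 7.43 (172-fold) that was the largest in favour of Hs578T of all 18417 genes. SNORD116-21 had 3.66 and 3.49 in MDA-MB231 and 10.77 and 9.73 in Hs578T, a difference of 6.67 (102-fold) and the third largest. For both, the arrays of a line lay far closer to each other than to those of the other line.

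SNORD116-20 had 5.18 and 5.26 in MDA-MB231 and 12.13 and 10.94 in Hs578T, a difference of 6.31 (79.5-fold). SNORD116-24 had 4.01 and 4.50 against 10.63 and 10.21, a difference of 6.16 (71.5-fold). These were the fifth and the sixth largest differences of any gene towards Hs578T, so that 4 of the top 10 genes were SNORD116 copies. SNORD116-15 had the highest values in MDA-MB231, 6.51 and 6.57, against 12.50 and 12.16 in Hs578T (55.3-fold).

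At the start of the array, SNORD116-1 had 3.72 on both MDA-MB231 arrays and 9.56 and 8.60 in Hs578T (41.0-fold). SNORD116-6 had 3.61 and 4.04 against 8.60 and 8.09 (22.9-fold). Both lines were again well separated. The next largest differences were at SNORD116-22 (8.49-fold), SNORD116-23 (7.66-fold), SNORD116-13 (6.81-fold) and SNORD116-11 (6.09-fold), with Hs578T control values of 6.54 to 7.37.

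The smallest differences were at SNORD116-16, with 3.13 and 3.11 in MDA-MB231 and 3.63 and 3.47 in Hs578T (1.35-fold), SNORD116-10, with 4.04 and 4.08 against 4.75 and 4.35 (1.41-fold), and SNORD116-28, with 4.96 and 5.06 against 5.74 and 5.51 (1.53-fold). These 3 were the copies below 2-fold, and their probe sets were dim in both lines. The copies are usually sorted by sequence into 3 groups, copies 1 to 9, 10 to 24 and 25 onward. The median difference was 4.94 in the first (2 copies), 2.94 in the second (13 copies) and 1.62 in the third (5 copies), where SNORD116-29 had the largest difference (2.23). Probe sets differ in how well they bind, so these figures do not order the copies by abundance, and neighbouring copies are similar enough in sequence that 1 probe can bind several. Across the 20 copies, the difference in the control arrays and that in the FBP1 arrays correlated at r = 0.98 and rho = 0.97; the copies share the arrays and much of their sequence.

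**Figure D1:**
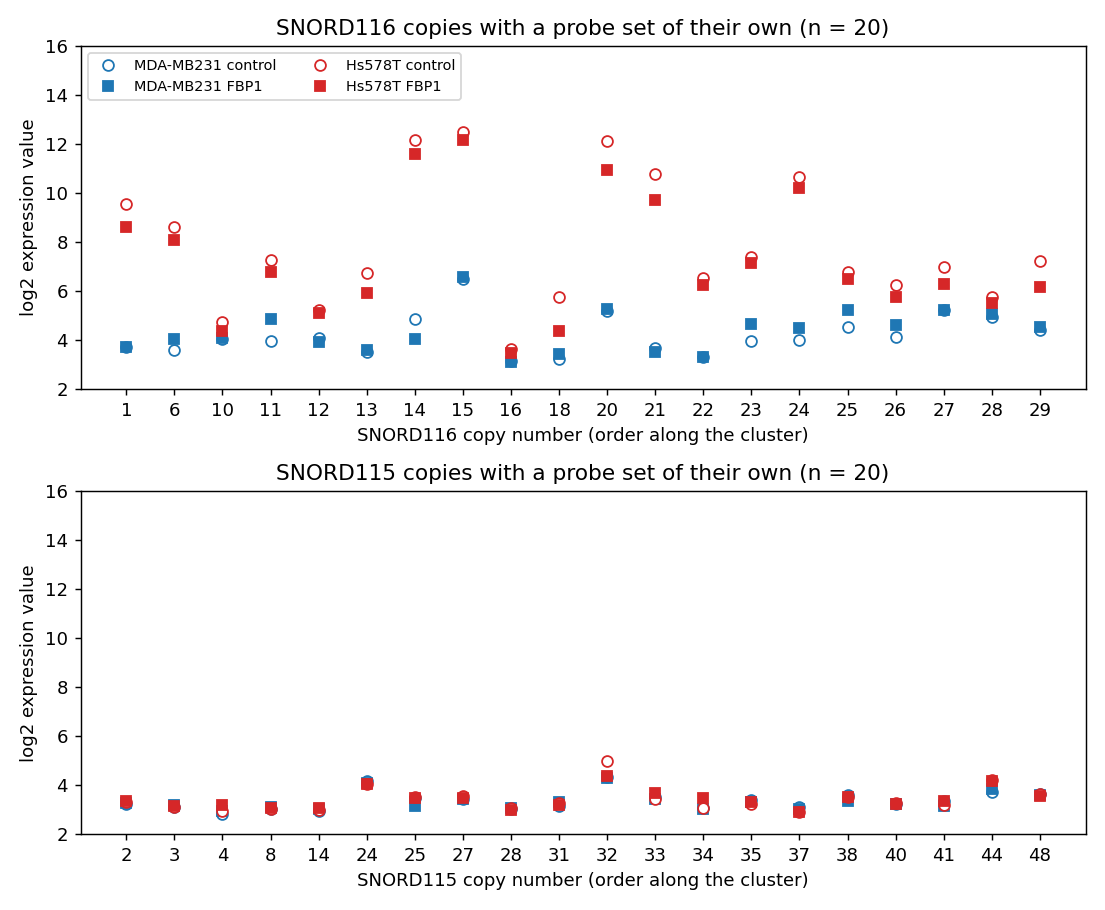
Log2 expression values (y axis) of the 20 SNORD116 copies (upper panel) and the 20 SNORD115 copies (lower panel) that have a probe set of their own, by copy number along the cluster (x axis). Blue marks MDA-MB231 and red Hs578T, open circles the control and filled squares the FBP1 array, 1 array each; both Hs578T values lie above both MDA-MB231 values at every SNORD116 copy, while all SNORD115 values lie between 2.83 and 5.00.

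In MDA-MB231 most SNORD116 values sat at the low end of the arrays. Of the 20 copies, 17 lay below the 5th percentile of genes (5.10) in the control and 16 in the FBP1 array, against 2 and 4 in Hs578T. No detection call was used here, so low values were not shown to be above background, and the sizes of folds that rest on them are uncertain.

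Probe sets that list several SNORD116 copies gave the same direction. There were 9 of them with 6 distinct sets of values, since probe sets for near-identical copies repeated the same numbers. All 6 were at least 2-fold higher in Hs578T, as were 4.88% of all genes, with a median difference of 5.41. Several list copies already counted on their own probe sets, and the set was chosen with this difference known, so they are no separate support. The largest belonged to the probe set listing 10 genes, SNORD116-14 to SNORD116-22 and SNRPN. It had 5.23 and 5.45 in MDA-MB231 and 12.45 and 11.97 in Hs578T (117-fold). SNORD116-16, listed there, stood at only 1.35-fold on its own probe set. The probe set listing SNORD116-3, SNORD116-5, SNORD116-7, SNORD116-8 and SNORD116-9 had 4.57 and 5.32 against 10.93 and 10.19 (48.9-fold). The smallest, listing SNORD116-2 and SNORD116-6, had 6.50 and 6.18 against 8.07 and 7.62 (2.85-fold), whereas SNORD116-6 stood at 22.9-fold on its own probe set. For these copies the size of the difference depended on the probe set.

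**Figure D2:**
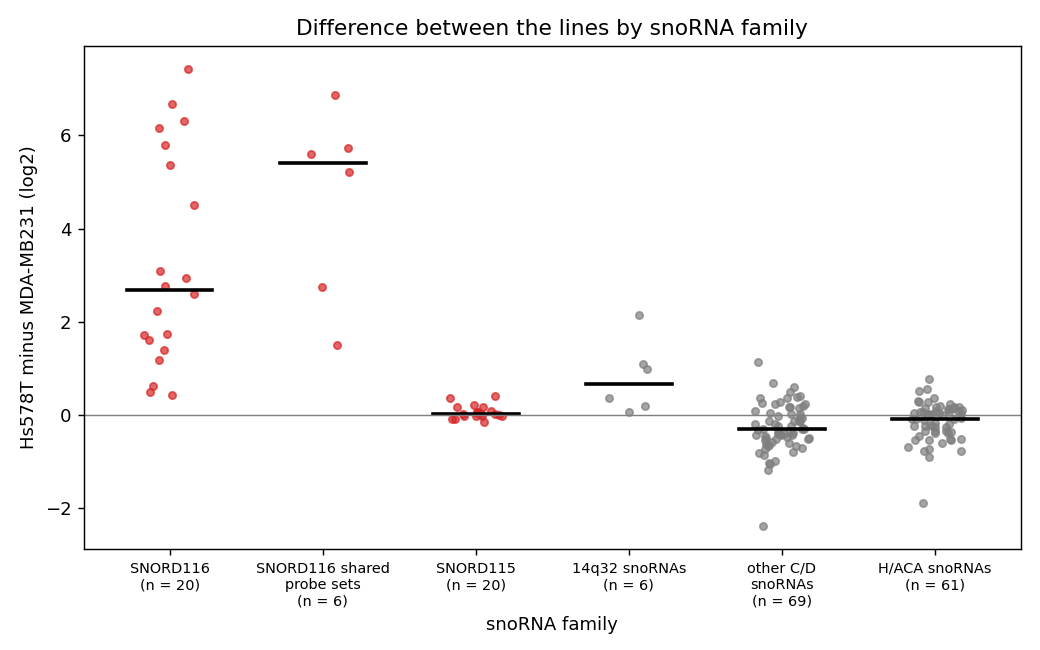
Difference between the lines (y axis, Hs578T minus MDA-MB231, log2, mean of the control pair and the FBP1 pair) for families of small nucleolar RNAs (x axis), each point a gene or distinct shared probe set and each bar the median. SNORD116 points range from 0.43 to 7.43, whereas the SNORD115 points lie between -0.15 and 0.40.

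SNORD115, the neighbouring array in the same long transcript, did not share this difference in size. Its 20 copies had a median difference of 0.03, and none was 2-fold apart between the lines, the largest being SNORD115-44 (0.40; 3.72 and 3.83 in MDA-MB231 against 4.19 and 4.16 in Hs578T) and SNORD115-32 (0.37; 4.34 and 4.29 against 5.00 and 4.37). All 20 lay below the 5th percentile of genes on every array. SNORD115-4 and SNORD115-37 had the lowest means, with values of 2.83 to 3.19 and 2.92 to 3.12. SNORD115-31 and SNORD115-3 were the closest between the lines, each with a difference of -0.01. The 6 distinct value sets among shared SNORD115 probe sets spanned 2.86 to 3.49, and their largest difference was 0.20. At such low values, differences in SNORD115 were not detectable on these arrays, which does not show that it was absent. HTR2C, the serotonin receptor gene whose transcript pairs with SNORD115, had 6.33, 6.29, 6.16 and 6.43 in the MDA-MB231 control and FBP1 and the Hs578T control and FBP1 arrays.

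The start of the paternal transcript followed SNORD116. The probe set listing SNURF and SNRPN, which encode a small arginine-rich protein and the spliceosomal protein SmN from 1 transcript, had 5.63 in the MDA-MB231 control, 6.05 with FBP1, 10.25 in the Hs578T control and 9.45 with FBP1, a difference of 4.01 (16.1-fold). One of its start windows is the first of the sequences shown above, and these arrays do not tell which start was used. Between this gene and SNORD116, the probe set for the snoRNA SNORD64 and the noncoding PWAR5 had 3.95 and 3.97 against 8.06 and 6.86 (11.3-fold). That for SNORD109A and SNORD109B, copies that flank the arrays, had 3.66 on both MDA-MB231 arrays against 6.99 and 5.87 (6.83-fold). At all 3, both Hs578T arrays lay above both MDA-MB231 arrays, as they did for 36.5% of all genes. PWAR6, a noncoding neighbour that is no member, had 3.36 and 3.48 against 4.16 and 3.84. These values lay below the 5th percentile of genes on every array, so the size of its difference is uncertain.

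The other protein-coding members lay closer together. UBE3A, which encodes a ubiquitin ligase and is transcribed towards SNORD115 from the opposite strand, had 10.07 and 9.86 in MDA-MB231 and 9.62 and 9.65 in Hs578T, a difference of -0.33. NDN, which encodes the growth suppressor necdin, had 6.15 and 5.83 against 6.58 and 6.86, a difference of 0.73 (1.66-fold), made up of 0.43 in the control arrays and 1.03 in the FBP1 arrays. Both NDN values in Hs578T were above both in MDA-MB231, as for 36.5% of all genes. MAGEL2, a partner of ubiquitin ligases in endosomal sorting, had 6.51 and 6.65 against 6.55 and 6.52. MKRN3, a ring finger gene linked to the timing of puberty, had 8.16 and 8.12 against 8.16 and 8.19. The lines overlapped for MAGEL2, and for MKRN3 they differed by 0.00 in the control and 0.065 in the FBP1 arrays.

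**Figure D3:**
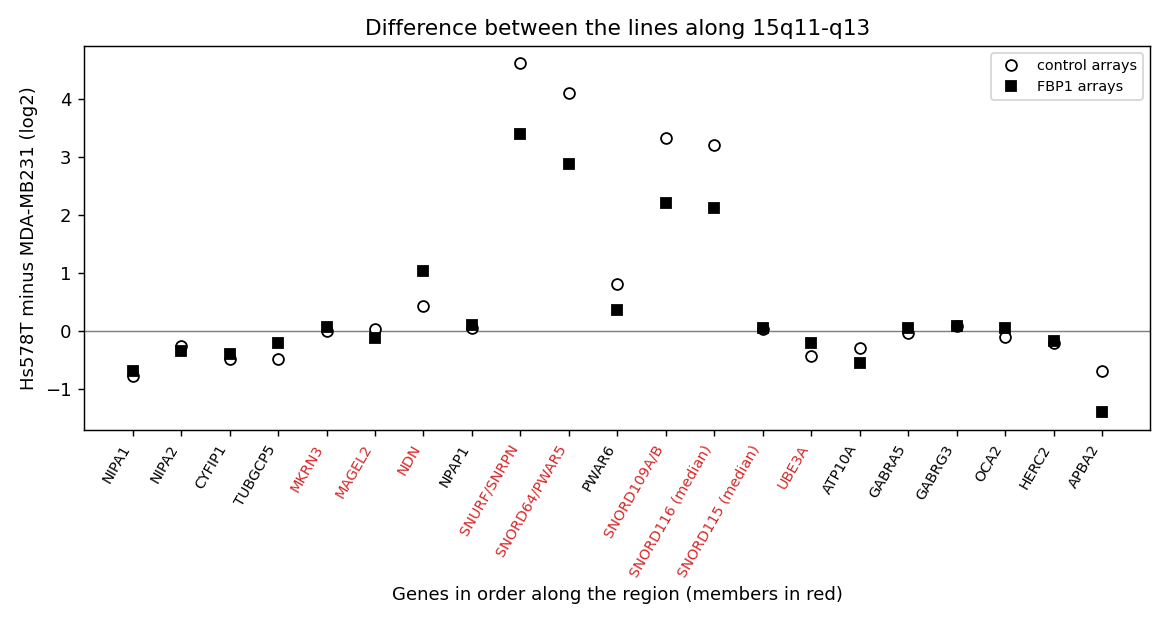
Difference between the lines (y axis, Hs578T minus MDA-MB231, log2) for genes in their order along 15q11-q13 (x axis, members in red), with open circles for the control arrays and filled squares for the FBP1 arrays. Differences of more than 2 lie in the block drawn from SNURF and SNRPN to SNORD116 (median of 20 copies, 3.22 in control and 2.12 in FBP1 arrays). PWAR6 (0.80 and 0.36), below the 5th percentile of genes on every array, lies inside it, while the genes on either side lie between -1.41 and 1.03. The probe set shared by SNORD109A and SNORD109B, copies that flank the arrays, is drawn before SNORD116, so its place is a choice.

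Genes of the region that are no members were taken from a list of 21, of which 12 had a probe set of their own. They include PWAR6 (0.58), which lies inside the block, and otherwise lie to either side of it. None was 2-fold higher in Hs578T and 1, APBA2, was at least 2-fold lower (-1.05; 9.36 and 9.38 against 8.65 and 7.97). NIPA1, a magnesium transporter gene at the centromeric end of the region, stood at -0.74, and CYFIP1, an actin regulator beside it, at -0.45. ATP10A, a lipid flippase gene next to UBE3A, stood at -0.43. The list median was -0.25, below the median over all genes.

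Other small nucleolar RNAs were described from the same arrays. Of 69 other C/D box snoRNA genes 1 was at least 2-fold higher in Hs578T, SNORD45B (1.15), and 4 were at least 2-fold higher in MDA-MB231, with SNORD30 the largest (-2.39); the median was -0.30. Of 61 H/ACA snoRNA genes, the class that guides pseudouridylation, none was 2-fold higher in Hs578T and SNORA20 (-1.88) was lower. The second large imprinted snoRNA cluster, on 14q32 and expressed from the maternal copy, lay in the same direction as SNORD116: all 6 genes with a probe set were above 0, with a median of 0.67, and 2 were at least 2-fold higher in Hs578T. SNORD114-3 had 4.52 and 4.75 against 7.82 and 5.75 (2.15), and SNORD113-4 had 3.48 and 3.74 against 5.27 and 4.16 (1.10). No test was made of the difference between families.

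Genes that act on the cluster or with its products were described from fixed lists. Of 17 genes of imprint maintenance 1 was at least 2-fold higher in Hs578T and none was lower: ZFP57, a zinc finger gene that keeps methylation at imprints, had 6.85 and 6.46 in MDA-MB231 and 10.70 in the Hs578T control, with a difference of 3.84 in the control arrays and 4.54 in the FBP1 arrays. The maintenance methyltransferase gene DNMT1 stood at -0.27 and its partner UHRF1 at -0.65. Of 8 measured genes for proteins that bind or assemble C/D box snoRNAs 0 were 2-fold apart; FBL, the methyltransferase of the particle, stood at -0.33 and the assembly factor gene PIH1D1 at -0.87. Of 13 spliceosomal partners of SNRPN 0 were 2-fold apart, among them SNRPB, its close paralogue (-0.24; 12.86 and 12.81 against 12.58 and 12.62).

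Relatives and partners of NDN and MAGEL2 included 8 measured genes, of which MAGED1 was at least 2-fold higher in Hs578T (1.14) and none was at least 2-fold lower. Of 14 imprinted genes elsewhere 0 were 2-fold apart; GRB10, an insulin receptor adaptor gene, stood at 0.88 and INPP5F at -0.80. The 3 measured partners of UBE3A lay between -0.19 and 0.15. NHLH2, the other measured gene linked to these snoRNAs, stood at 0.08. Neuronal markers were in part higher along with the cluster: 3 of 7 were at least 2-fold higher in Hs578T, the synaptic genes SYT1 (2.91) and SNAP25 (2.11) and the microtubule gene MAP2 (1.68), while RBFOX3 (-0.13), STMN2 (-0.04) and SYP (0.07) were near 0. On the level scale the 7 ran from 6.01 to 7.80 in the MDA-MB231 control and from 6.62 to 10.86 in the Hs578T control. Their part in the difference was not tested. Of the 8 luminal markers 3 were at least 2-fold lower in Hs578T, KRT8 (-3.38), EPCAM (-3.04) and CDH1 (-1.33).

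The study's own question was what FBP1 expression does in each line. In Hs578T, all 20 SNORD116 copies had a lower value in the FBP1 array than in the control, with a median of -0.47 (control 1.39-fold above FBP1) against 0.03 over all genes. Of these, 7 were at least 1.5-fold lower and 0 at least 1.5-fold higher; over all genes 1.57% were at least 1.5-fold lower, 1.4% at least 1.5-fold higher and 44.1% lower by any amount. These counts are again a description, since the copies share sequence, arrays and the knowledge on which they were chosen.

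The most negative difference was at SNORD116-18, from 5.74 to 4.35 (-1.39, control 2.63-fold above FBP1). SNORD116-20 went from 12.13 to 10.94 (-1.19), SNORD116-29 from 7.21 to 6.16 (-1.05) and SNORD116-21 from 10.77 to 9.73 (-1.04). These 4 were at least 2-fold lower, and SNORD116-20 and SNORD116-21 were among the brightest copies. SNORD116-1 (-0.96), SNORD116-13 (-0.81) and SNORD116-27 (-0.70) made up the 7. The smallest differences were at SNORD116-12 (-0.13) and SNORD116-16 (-0.16).

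The rest of the block was lower too, by differing amounts, with PWAR6, which is no member, at -0.32. The 6 distinct shared SNORD116 value sets ran from -0.86 to -0.45, with 4 at least 1.5-fold lower, as were 1.57% of all genes. The SNURF and SNRPN probe set stood at -0.80 (control 1.74-fold above FBP1), SNORD64 with PWAR5 at -1.20 (2.30-fold) and SNORD109A with SNORD109B at -1.12 (2.17-fold). With FBP1 each of these still lay above both MDA-MB231 arrays.

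Among members outside the block, SNORD115 had a median of 0.01, with 10 of 20 copies below 0. All 20 lay below the 5th percentile of genes on every array, so these values cannot show whether SNORD115 changed. SNORD115-32, named here after its values were seen as the only copy past 1.5-fold, went from 5.00 to 4.37 (-0.63), and the largest positive differences were at SNORD115-34 (0.39), SNORD115-33 (0.24) and SNORD115-4 (0.23). UBE3A stood at 0.02, MAGEL2 at -0.02, MKRN3 at 0.03 and NDN at 0.27. Thus 8 of 44 members were past 1.5-fold in Hs578T, against 2.97% of all genes in either direction.

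**Figure D4:**
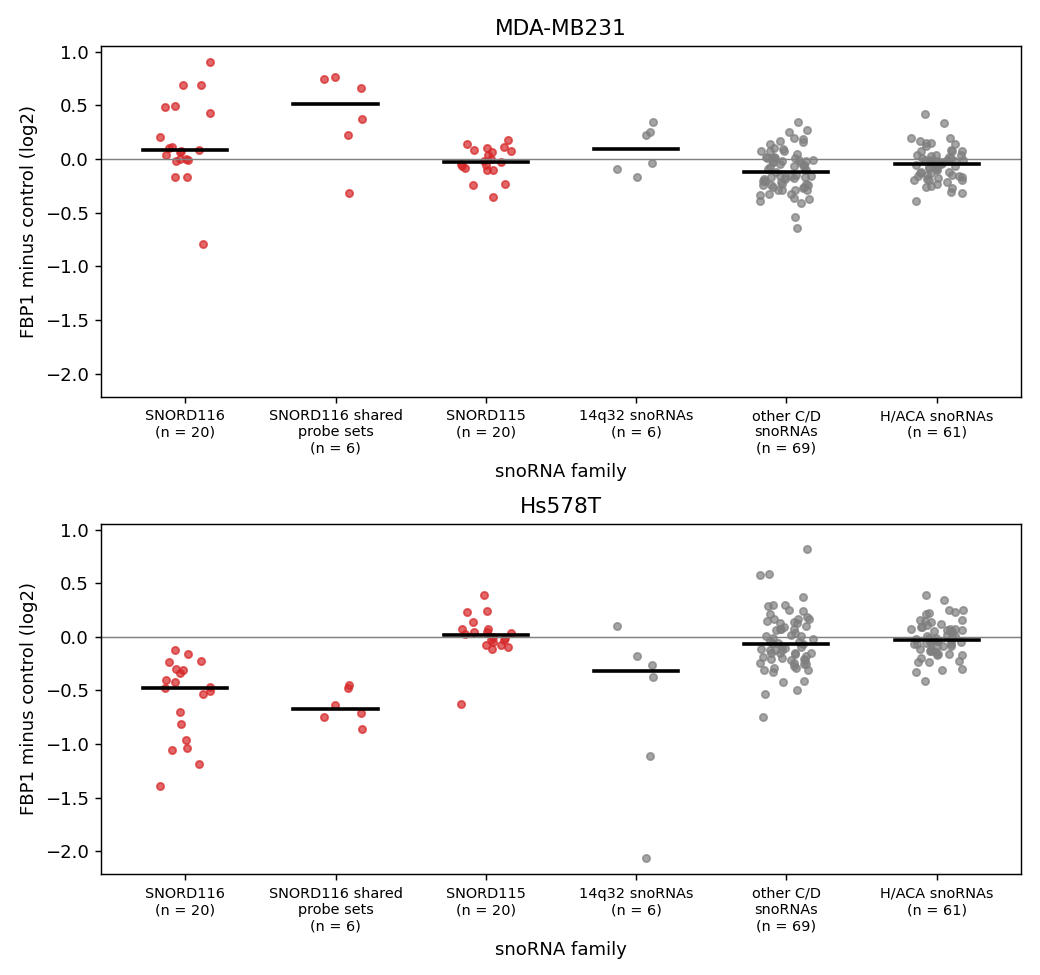
FBP1 minus control (y axis, log2) in MDA-MB231 (upper panel) and Hs578T (lower panel) for families of small nucleolar RNAs (x axis), each point a gene or distinct shared probe set and each bar the median, with 1 array per line and construct. In Hs578T every SNORD116 point lies below 0 (-1.39 to -0.13), and in MDA-MB231 the points lie on both sides of 0 (-0.79 to 0.91).

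Other gene groups were set beside these values in Hs578T. The 12 measured 15q11-q13 neighbours, PWAR6 among them, had a median of 0.04. Of these, 5 were below 0 and 1 was at least 1.5-fold lower, APBA2 (8.65 to 7.97, -0.68). The 69 other C/D box snoRNA genes had a median of -0.07, with 41 below 0, 1 at least 1.5-fold lower (SNORD45B, -0.75) and 1 higher (SNORD13P1, 0.82). The 61 H/ACA genes had a median of -0.03, with 0 past 1.5-fold. The 14q32 snoRNA genes had a median of -0.32, with 5 of 6 below 0, and held a more negative value than any SNORD116 copy, SNORD114-3 at -2.07, as well as SNORD113-4 at -1.11; MEG3, the noncoding RNA of that cluster, stood at -0.21. Another 62 genes that were low in MDA-MB231 and at least 8-fold higher in Hs578T, a set chosen after the data were seen, had a median of 0.14, with 24 below 0. Among SNORD116 copies at least 8-fold higher in Hs578T, 8 of 8 were below 0, with a median of -0.52. Both sets were picked on the line difference, which is built from the same Hs578T values. Their MDA-MB231 control medians were 5.75 for the 62 genes and 3.87 for the SNORD116 copies, so the sets are not matched. No comparison is drawn between them. Of the imprint maintenance genes 0 of 17 were past 1.5-fold in Hs578T (UHRF1 0.49, ZFP57 0.30), nor was any of the 8 C/D box snoRNP protein genes (largest 0.20), whereas MEST, an imprinted gene on another chromosome, stood at 0.73.

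In MDA-MB231 the picture was mixed. The median of the 20 SNORD116 copies was 0.08, with 13 above 0, 6 below and 1 equal, against 48.6% of all genes above and 51.3% below. Of the copies, 3 were at least 1.5-fold higher, as were 0.353% of all genes: SNORD116-11 (3.95 to 4.86, 0.91), SNORD116-25 (4.54 to 5.23, 0.69) and SNORD116-23 (3.98 to 4.66, 0.69). SNORD116-14 (4.84 to 4.06, -0.79) was at least 1.5-fold lower, as were 0.337% of all genes. Thus 4 of 44 members were past 1.5-fold in MDA-MB231, against 0.69% of all genes in either direction, and all 4 had values below the 5th percentile in the control.

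Of the shared SNORD116 value sets in MDA-MB231, 3 of 6 were at least 1.5-fold higher, as were 0.353% of all genes. The largest was for SNORD116-4 with SNRPN (4.89 to 5.65, 0.76). The SNURF and SNRPN probe set stood at 0.42, SNORD64 with PWAR5 at 0.02 and SNORD109A with SNORD109B at 0.00. SNORD115 had a median of -0.03 and 0 of 20 past 1.5-fold, the lowest being SNORD115-25 (-0.35) and SNORD115-41 (-0.24). NDN stood at -0.32, UBE3A at -0.21, MAGEL2 at 0.14 and MKRN3 at -0.03. The 62 other genes low in this line and high in Hs578T had a median of 0.14, with 40 above 0, 9 at least 1.5-fold higher and 0 lower; their part in the SNORD116 values was not tested.

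With the lines as the only replication of the construct, limma with a cell line term found 0 of 18417 genes (0.0%), and so 0 of the 44 members, with a Benjamini-Hochberg adjusted p under 0.05, and the smallest adjusted p was 0.936; FBP1 itself was not called. At unadjusted p under 0.05 it gave 2 members, SNORD116-14 and SNORD116-21, and 966 genes in all (5.25%). Whether the response of SNORD116 differed between the lines could not be tested with 1 array per line and construct. Over the 20 SNORD116 copies, the gap between the lines had medians of 3.22 in control and 2.12 in FBP1 arrays. This gap is built from the same values as the FBP1 differences above and is no separate result.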

How the data were processed

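The authors deposited a table of log2 expression values for 33297 probe sets on 4 Affymetrix arrays, with 1 array per line and construct. Affymetrix Expression Console 1.1.2800.28061 is the tool named in the submitters' processing notes. How values were summarized and normalized is not stated there, and the log2 scale was read from the values (2.40 to 14.81). In the platform's annotation 19460 probe sets list 1 gene, 1754 several and 12083 none. A gene with more than 1 such probe set was represented by its brightest, which gave 18417 genes. No intensity filter was applied. Probe sets listing several genes were described apart.

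Line differences and FBP1 minus control were counted at 2-fold and 1.5-fold. The construct was fitted across lines with limma 3.58.1 in R 4.3.3 (1 residual degree of freedom, prior of 5.09, intensity trend, Benjamini-Hochberg adjustment). The fit was checked on simulated data with the same change in each line, which does not cover changes that differ between lines. Members and lists were chosen with earlier results of these data known. Named genes were all members outside the SNORD arrays, the copies with extreme means, line differences or FBP1 changes, and up to 4 genes per list by size of difference; further copies were named as members. Among markers and lists, FBL, SNRPB, DNMT1 and other reference genes were named for their role, after their values were seen.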

Additional observations from a re-analysis of the deposited data

Results flagged for a closer look

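Some FBP1 differences had opposite signs in the lines. With 1 array per line and construct none of these differences was tested, and 48.7% of all genes had opposite signs. The SNORD116 median was 0.0801 in MDA-MB231 and -0.47 in Hs578T. SNORD116-11 stood at 0.91 and -0.47, SNORD116-23 at 0.69 and -0.23 and SNORD116-25 at 0.69 and -0.31, each past 1.5-fold in MDA-MB231. SNORD116-13 stood at 0.0757 and -0.81, SNORD116-18 at 0.21 and -1.39, SNORD116-20 at 0.0844 and -1.19 and SNORD116-29 at 0.11 and -1.05, each past 1.5-fold in Hs578T.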

How the results depend on the processing

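The limma fit pairs the arrays by cell line; without that term it also called 0 members. Under quantile normalization, median centring and averaging of probe sets, the counts of members past each fold were those given above (17, 0, 4 and 8). Leaving out members with a mean over the 4 arrays under 6.16, the 25th percentile over all 33297 probe sets, kept 10 of 44, with 6 SNORD116 and 0 SNORD115 copies. Apart from SNORD116-15, these copies passed only through their Hs578T values, so their line difference is set by the filter. It gave 6 members at least 2-fold higher in Hs578T, 1 past 1.5-fold with FBP1 in MDA-MB231 and 3 in Hs578T, and SNORD116 medians of 6.24 between the lines, 0.033 with FBP1 in MDA-MB231 and -0.75 in Hs578T. At 2-fold, 0 members passed with FBP1 in MDA-MB231 and 4 in Hs578T. Limma called 0 members under every setting tried. Low signal limits SNORD115 and the MDA-MB231 values of SNORD116.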
